A study of Mus musculus with 6 samples.

Results

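The 9 transcripts described here encode heat shock chaperones of the cytosol, the endoplasmic reticulum (ER) and the mitochondrion, measured in circulating red cells of BALB/c mice. They were taken by name from the 27179 genes in each count file, and all 9 were found. Hspa8 (HSC70), Hsp90aa1 and Hsp90ab1 (the inducible and the constitutive cytosolic HSP90) and the J-domain proteins Dnaja1 and Dnajb1 are cytosolic, Hspa5 (BiP) is the HSP70 of the ER, and Hspa9 (mortalin), Hspd1 (HSP60) and Hspe1 (HSP10) are mitochondrial. Red cells were purified by density centrifugation of heart blood from 3 male mice heterozygous for the C587R allele of Nxf1 (Nxf1+/C587R) and from 3 wild-type littermates (Nxf1+/+). Each mouse gave 1 library of polyadenylated RNA, and each of 3 batches named in the labels held 1 mutant and 1 wild-type mouse. Nxf1 encodes the export receptor that carries bulk messenger RNA out of the nucleus. The labels give no age and name no tissue restriction of the allele.

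HSP70 proteins bind unfolded stretches of client proteins and release them in a cycle driven by ATP, J-domain proteins deliver the clients and start ATP hydrolysis, and HSP90 takes over some clients, such as kinases, for later steps. Hspd1 and Hspe1 form the chamber and the lid of the mitochondrial chaperonin, and Hspa9 pulls proteins into the matrix and helps to pass on iron-sulfur clusters. In erythroid cells HSP70 and HSP90 proteins are known for the control of the heme-regulated kinase HRI and for protecting the transcription factor GATA1. A red cell that has left the marrow has no nucleus and clears its mitochondria and ER as it matures, so its messenger RNA was made at earlier stages.

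The promoters of several of these genes carry stress elements, which are shown because heat-inducible and ER chaperone genes stood out in 1 library. Whether the elements go with the values of that library was not tested. Of the 9 genes, 5 (Hspd1, Hspe1, Hspa5, Dnaja1 and Dnajb1) had an entry in the RefSeq promoter table (GRCm38.p6), whose windows of 300 bases run from 250 before to 50 after a start site. The heat shock element, the site of heat shock factors, was searched as GAANNTTC and as TTCNNGAA, each of which reads the same on both strands. One form or the other was in 15.1% of the 32851 windows. Hspd1 and Hspe1 lie head to head on chromosome 1, their gene spans overlap by 96 bases, and their windows share a run in which 2 TTCNNGAA motifs stand 2 bases apart and a GAANNTTC overlaps both. Such a run was in 5 of the 32851 windows. The ER stress response element was searched on both strands as CCAAT and CCACG with any 9 bases between them, and was in 0.119% of windows. The Hspa5 window had 1 match, and that of Hsp90b1, the HSP90 of the ER, had 2, of which the second is on the reverse strand. Hspa1a (inducible HSP70) and Hsph1 (HSP110) are shown beside Dnaja1 as genes with 1 heat shock match in the stretch. The windows of Hsph1 each held 1 GAANNTTC and 2 TTCNNGAA, of which 1 TTCNNGAA is printed. Dnaja1 also had windows at other start sites that held neither form. The windows of Dnajb1 held neither heat shock form, which says only that these letters were not there. Capitals mark the matched bases.
Hspe1, chr1:55088051-55088084, plus strand: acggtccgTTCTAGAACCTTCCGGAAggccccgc
Dnaja1, chr4:40722336-40722359, plus strand: agcctctaGAAAATTCtacgaggc
Hspa1a, chr17:34972245-34972268, minus strand: aactgctgGAAGATTCctggcccc
Hsph1, chr5:149636354-149636377, minus strand: tagaatctTTCTCGAAggctcgag
Hspa5, chr2:34772017-34772051, plus strand: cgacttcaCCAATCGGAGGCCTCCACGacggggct
Hsp90b1, first match, chr10:86705630-86705664, minus strand: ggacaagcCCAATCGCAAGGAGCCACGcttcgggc
Hsp90b1, second match, chr10:86705525-86705559, minus strand: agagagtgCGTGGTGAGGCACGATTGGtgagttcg

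The libraries held 14636739 to 15790336 counts, of which globin transcripts took 88.1% to 89.3%. All 14 matched erythroid markers, led by Hba-a2 and Hba-a1, were counted in every library. A list of 48 hepatocyte markers, led by Alb and Trf, summed to 2963, 6398 and 3626 counts in the mutant libraries, with 46 or 47 of its genes seen in each, against 225, 89 and 124 counts in the wild-type libraries, where 32 of the 48 were at 0 throughout. Wild-type library 1 held 437 counts of 18 exocrine pancreas markers, led by Cela2a and Pnlip, with 17 of them seen and Prss1 at 0, against at most 3 counts in any other library. White cell and platelet markers were present in both groups, with Elane at 0 throughout. Neutrophil and macrophage markers (Csf3r, S100a9) summed to 1329 to 2471 counts in mutant and 2123 to 2695 in wild-type libraries, B cell markers (Cd74, Ighm) to 195 to 330 and 352 to 910, T and NK cell markers (Gzma, Lck) to 25 to 47 and 69 to 168, and platelet markers (Itga2b, Ppbp) to 84 to 221 and 181 to 341. Markers of the erythroblast stage (Cd24a, Tfrc) summed to 1176, 1196 and 1802 counts in the mutant libraries, against 2256, 3314 and 3811 in the wild-type libraries. The part of other cells in the chaperone counts was not tested, and in bulk libraries fewer cells of a type and less RNA per cell cannot be told apart.

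The chaperone transcripts were a small part of all counts, most of which were globin. All 9 together made up 14.4, 13.3 and 16.5 CPM (counts per 1000000 of the library's total) in the mutant libraries (95% Wilson intervals 12.6 to 16.4, 11.6 to 15.3 and 14.6 to 18.8), against 54.9, 15.5 and 18.7 in wild-type libraries 1, 2 and 3 (51.3 to 58.7, 13.6 to 17.6 and 16.7 to 20.9). Wild-type library 1 stood far above every other library, and mutant library 3 lay above wild-type library 2, so the groups overlapped. The mean was 14.7 ± 1.64 CPM for mutant and 29.7 ± 21.9 for wild type (SD over 3 libraries, here and after each ± below unless stated), a difference within the wild-type spread (exact two-sided permutation p = 0.2, where 0.1 is the smallest that 3 against 3 allow). Wild-type libraries 2 and 3 alone averaged 17.1 CPM. Per 1000000 counts without globins, the 9 made up 133, 124 and 149 in the mutant libraries, against 489, 139 and 157 in the wild-type libraries.

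**Figure D1:**
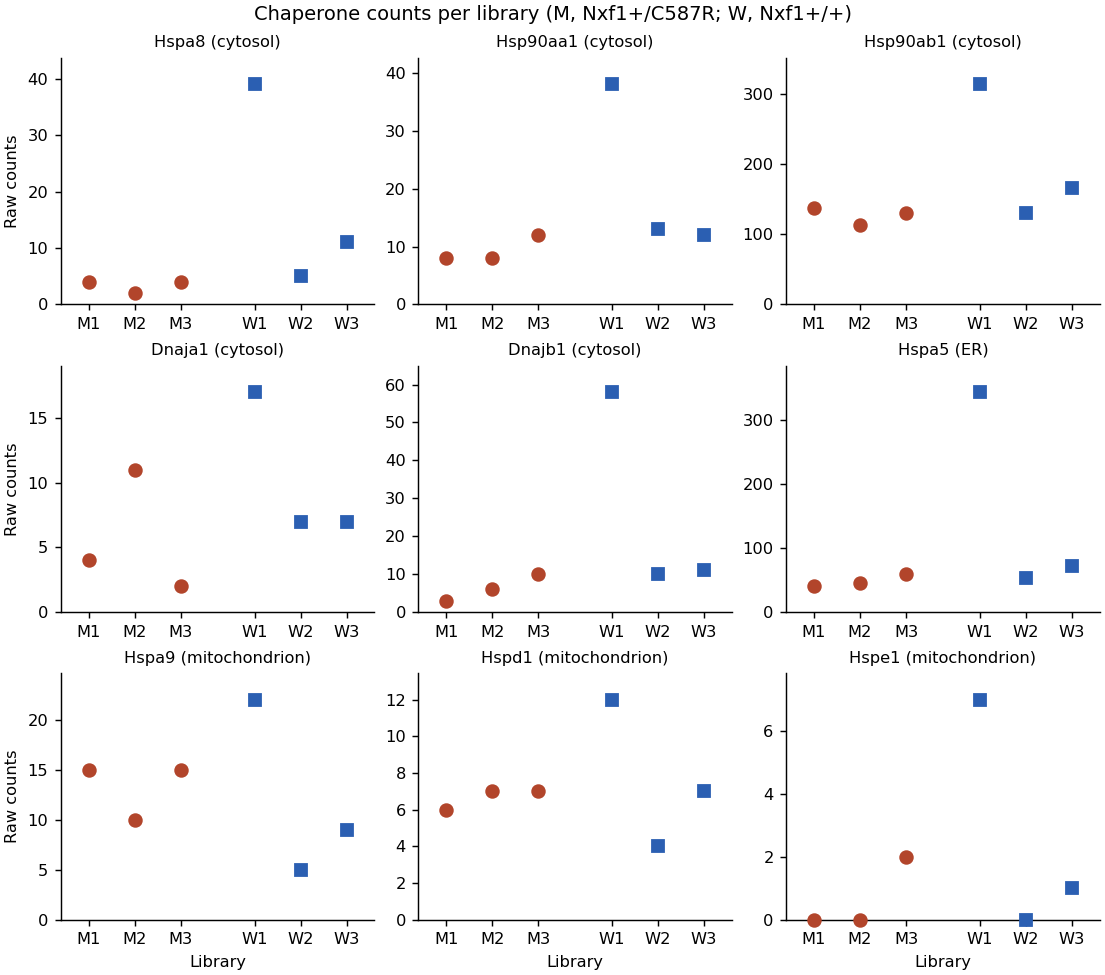
Raw counts of each chaperone (y axis) in the 3 Nxf1+/C587R libraries (circles, M1 to M3) and the 3 Nxf1+/+ libraries (squares, W1 to W3). All 9 genes had their highest count in wild-type library 1, from 7 counts for Hspe1 to 344 for Hspa5.

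Of the cytosolic chaperones, Hsp90ab1 (Entrez gene 15516, chromosome 17, 45567778 to 45573261 in mm10) was by far the most counted. It had 137, 113 and 130 counts in the mutant libraries, against 313, 130 and 165 in the wild-type libraries. The groups overlapped, and wild-type library 1 lay apart from the other 5. Hsp90aa1 (Entrez gene 15519, chromosome 12, 110691036 to 110696395), its stress-induced partner, had 8, 8 and 12 counts in the mutant libraries, against 38, 13 and 12 in the wild-type libraries. The groups met at 12 counts.

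Hspa8 (Entrez gene 15481, chromosome 9, 40801276 to 40805202), which is often among the most abundant chaperone messages of nucleated cells, was barely present. It had 4, 2 and 4 counts in the mutant libraries, against 39, 5 and 11 in the wild-type libraries. The raw counts did not overlap, by 1 count, but the TMM-scaled levels did. Dnajb1 (Entrez gene 81489, chromosome 8, 83608175 to 83612653), a heat-inducible J-domain protein, had 3, 6 and 10 counts in the mutant libraries, against 58, 10 and 11 in the wild-type libraries. Apart from wild-type library 1 the counts were at most 11. Dnaja1 (Entrez gene 15502, chromosome 4, 40722468 to 40734965), a farnesylated J-domain protein, had 4, 11 and 2 counts in the mutant libraries, against 17, 7 and 7 in the wild-type libraries, with overlap.

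Hspa5 (Entrez gene 14828, chromosome 2, 34772090 to 34776529) was the other chaperone with over 40 counts in every library. It had 41, 46 and 60 counts in the mutant libraries, against 344, 54 and 72 in the wild-type libraries. The ranges overlapped, with wild-type library 1 at 4.87 times the CPM of the next highest library. Its span overlaps that of Rabepk by 1921 bases, and reads there cannot be told apart without a stated strand setting, but Rabepk had at most 5 counts in any library. The whole Hspa5 promoter window (chr2:34771840-34772139, plus strand) is given with the ER stress response element, which begins 65 bases before the start site, in capitals: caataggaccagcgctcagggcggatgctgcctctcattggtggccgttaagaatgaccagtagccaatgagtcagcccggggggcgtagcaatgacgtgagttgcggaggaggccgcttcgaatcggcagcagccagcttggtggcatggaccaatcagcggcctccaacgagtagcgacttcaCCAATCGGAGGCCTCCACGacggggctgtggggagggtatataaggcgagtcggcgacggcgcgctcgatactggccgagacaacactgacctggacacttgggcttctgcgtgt

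The mitochondrial chaperones had low counts, but so had cytosolic ones. Over all libraries Hspa9 had 76 counts, against 65 for Hspa8 and 48 for Dnaja1, while Hspd1 had 43 and Hspe1 10. Hspa9 (Entrez gene 15526, chromosome 18, 34937414 to 34954351) had 15, 10 and 15 counts in the mutant libraries, against 22, 5 and 9 in the wild-type libraries. The mutants thus lay above wild-type libraries 2 and 3 and below library 1. Hspd1 (Entrez gene 15510, chromosome 1, 55077833 to 55088243) had 6, 7 and 7 counts in the mutant libraries, against 12, 4 and 7 in the wild-type libraries, with overlap. Hspe1 (Entrez gene 15528, chromosome 1, 55088148 to 55091317) had 0, 0 and 2 counts in the mutant libraries, against 7, 0 and 1 in the wild-type libraries. A count of 0 allowed up to 0.198 and 0.197 CPM in mutant libraries 1 and 2 and 0.204 CPM in wild-type library 2. GENCODE names 5 processed pseudogenes after Hspd1, 6 after Hspe1, and 1 each after Hspa9 and Dnaja1, so counts of these 4 genes depend on how reads shared with such copies were treated.

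Levels were compared between genes as RPKM, the CPM divided by the gene length in kilobases given in the files. Over all 6 libraries Hsp90ab1 averaged 4.31 RPKM (range 2.96 to 8.06) and Hspa5 2.56 RPKM (1.03 to 8.49). Next in mean RPKM came Dnajb1 at 0.471, Hsp90aa1 at 0.349, Hspa8 at 0.334, Hspa9 at 0.274, Hspd1 at 0.202, Hspe1 at 0.141 and Dnaja1 at 0.0903. Among the 16396 genes with a count, 352 had a higher mean RPKM than Hsp90ab1 and 488 a higher one than Hspa5, against 1669 to 5786 for the other 7.

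The order below Hsp90ab1 and Hspa5 was not firm. Without wild-type library 1, Hsp90ab1 averaged 3.56 ± 0.429 RPKM and Hspa5 1.38 ± 0.291 (SD over 5 libraries), and their ranges of 2.96 to 4.17 and 1.03 to 1.74 did not overlap. The next 5, Hsp90aa1 at 0.247, Hspa9 at 0.235, Dnajb1 at 0.234, Hspd1 at 0.176 and Hspa8 at 0.162 RPKM, overlapped one another in range. Dnajb1 and Hspa8 thus stood lower in the order than with all libraries. Dnaja1 at 0.0705 and Hspe1 at 0.0521 RPKM came last. Both overlapped each other, Hspd1, Hspa8, Dnajb1 and Hspa9 in range, but not Hsp90aa1.

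**Figure D2:**
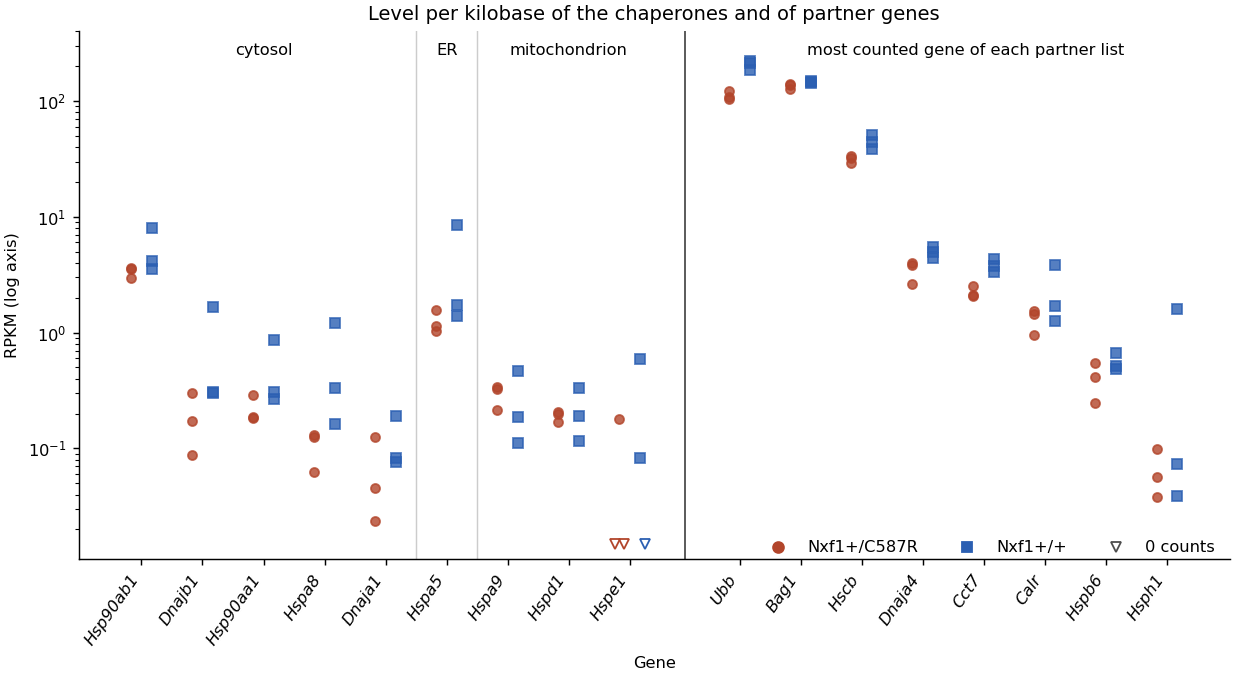
Level per kilobase of gene length (y axis, RPKM on a log axis) of the 9 chaperones by compartment and of the most counted gene of each of 8 partner lists, with Nxf1+/C587R libraries as circles left of Nxf1+/+ libraries as squares and open triangles for libraries with 0 counts. Hsp90ab1 and Hspa5 stand above the other 7 chaperones of the same library, and Ubb, Bag1 and Hscb stand above all 9.

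Bag1, Hscb and Ubb, each the most counted gene of its partner list, were far more abundant than the chaperones themselves. Bag1, a nucleotide exchange factor of HSP70, had 128 to 150 RPKM over the 6 libraries. Hscb, the J-domain protein that hands on iron-sulfur clusters together with Hspa9, had 29.3 to 50.8 RPKM, against 0.112 to 0.467 RPKM for Hspa9. Ubb, a polyubiquitin gene, had 103 to 222 RPKM. Dnaja4, a cytosolic J-domain protein, had 2.65 to 5.52 RPKM, above Dnaja1 and Dnajb1 in every library. Cct7, a subunit of the cytosolic chaperonin, had 2.06 to 4.29 RPKM. Both overlapped Hsp90ab1 (2.96 to 8.06 RPKM) in range. Hsf1, the main heat shock factor, named after its values were seen, had 1, 1 and 3 counts in the mutant libraries and 1, 2 and 2 in the wild-type libraries.

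Wild-type library 1 carried most of the variation. All 9 chaperones had their highest CPM by library totals there, but so did 53.7% of the 4096 genes with at least 10 counts in it. At least 2-fold over every other library were 15.4% of these genes, against 0.143%, 3.53% and 0.794% for the same measure in the 3 mutant libraries and 0.328% and 2.26% in wild-type libraries 2 and 3. Of the 8 chaperones with at least 10 counts there, 4 passed that fold. Dnajb1 had 5.37 times the CPM of the next highest library, Hspa5 4.87, Hspa8 3.61 and Hsp90aa1 2.78 times. Hsp90ab1 had 1.93, Dnaja1 1.52 and the mitochondrial Hspd1 and Hspa9 1.62 and 1.39 times. Hspe1, with only 7 counts there and so not among the 8, had 3.31 times. All these folds use library totals. After TMM scaling, Hspa9 was highest in mutant library 1 (1.37 CPM, against 1.16 in wild-type library 1). Dnaja1 was then highest in mutant library 2 (0.925 CPM, against 0.893 in wild-type library 1).

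Partner genes that stood out in this library were mostly ER genes and HSP70 relatives. Of the 23 genes of the ER and unfolded protein response list with at least 10 counts there, 16 were at least 2-fold over every other library. Hyou1, an ER exchange factor, and Hsp90b1 were named after their values were seen. Hyou1 had 5, 6 and 3 counts in the mutant and 84, 3 and 4 in the wild-type libraries. Hsp90b1 had 28, 28 and 22 counts against 182, 18 and 35. Ero1b, an ER oxidase known from pancreas, had 2, 1 and 6 counts in the mutant libraries, against 123, 2 and 11 in the wild-type libraries. Outside wild-type library 1, Hyou1 and Ero1b had at most 11 counts in any library, and Hsp90b1 had 18 to 35.

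Of the 5 genes of the HSP70 and HSP110 list with at least 10 counts there, 4 passed the same fold. Hsph1 had 2, 3 and 5 counts in the mutant libraries, against 86, 2 and 4 in the wild-type libraries. Hspa1a, named after its values were seen, had 0, 2 and 1 counts in the mutant libraries, against 63, 4 and 0 in the wild-type libraries. Its near-identical copy Hspa1b had 4, 2 and 1 counts against 53, 2 and 2, and reads may have been divided between the copies. Of the 4 genes of the mitochondrial list and the 10 of the cytosolic and nuclear J-domain list with at least 10 counts, 0 passed, while Dnajc3, a J-domain gene of the ER list, was among the 16 above (3.28 times). The 437 counts of pancreas markers were in the same library, and their part in these values was not tested.

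**Figure D3:**
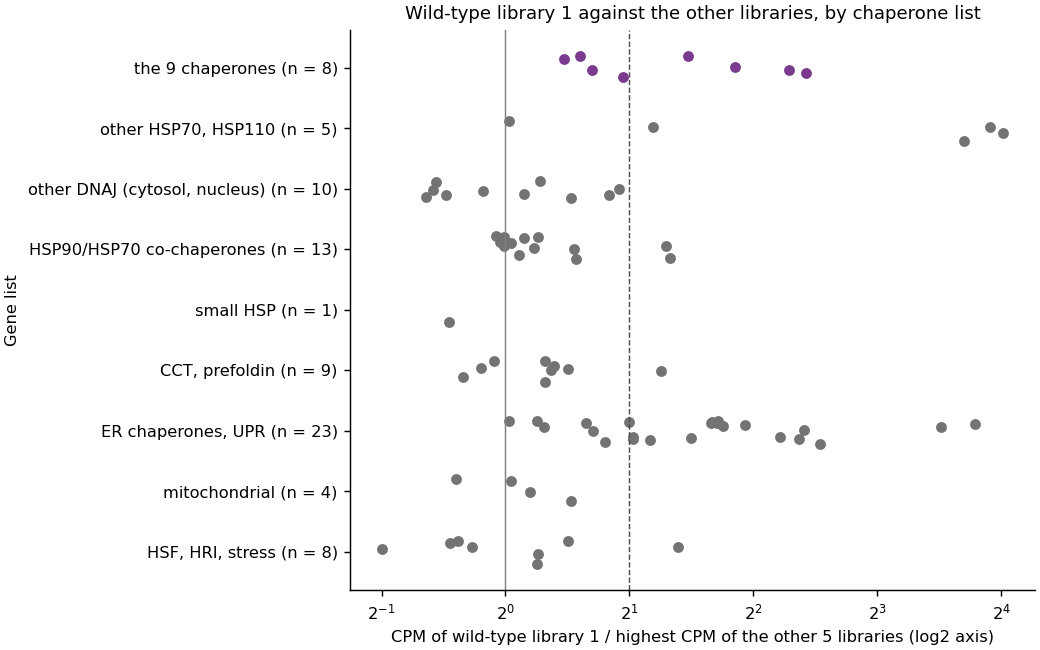
For each gene with at least 10 counts in wild-type library 1, the CPM of that library divided by the highest CPM of the other 5 libraries (log2 x axis), by gene list, with a dashed line at 2-fold. Points beyond the line include 4 of the 8 chaperones, 4 of 5 other HSP70 and HSP110 genes and 16 of 23 ER genes.

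The genotype comparison asked whether red cells of Nxf1+/C587R mice held more or less of these transcripts than those of their littermates. With the filter on low counts and all libraries, no chaperone passed the test. Only 5 of the 9, Hsp90ab1, Hspa5, Hsp90aa1, Dnajb1 and Hspa9, passed that filter (at least 0.657 CPM in 3 libraries). Hsp90aa1 and Dnajb1 reached that level in all 3 wild-type libraries and in 1 mutant, and Hspa9 in 2 mutants and 1 wild-type library. Of the 5, 0 were called at an adjusted p under 0.05 (edgeR quasi-likelihood test with TMM scaling), against 7.05% of the 2823 genes tested, of which 1.06% were lower. There were also 0 at an unadjusted edgeR p under 0.05, against 523 of the 2823 genes, and 0 calls by DESeq2 and limma-voom. With only 5 genes, 0 calls are near the background. TMM-scaled levels overlapped between the groups for all 5, while 11.1% of all genes tested were lower in the mutants without overlap and 12.3% higher. The median log2 fold change of the 5 was −0.64, against −0.06 over all genes tested, and without wild-type library 1 it turned to 0.13, against 0.00 over all genes.

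The differences of Hspa5, Dnajb1 and Hsp90aa1 turned on wild-type library 1. For Hspa5 the TMM-scaled level was 3.75, 3.87 and 3.87 CPM in the mutant libraries, against 18.1, 3.29 and 3.71 in the wild-type libraries. On this scale mutants were slightly higher than their batch partners in 2 of 3 batches and far lower in the batch of wild-type library 1. By RPKM, which uses library totals, Hspa5 was lower in the mutant of every batch (1.03, 1.15 and 1.57, against 8.49, 1.4 and 1.74). Its log2 fold change was −1.13 (SE 0.81, edgeR adjusted p = 0.583), and 0.13 (SE 0.24, adjusted p = 0.860) without that wild-type library 1. With total counts it was −0.33 (edgeR adjusted p = 0.553) without that library. Dnajb1 averaged 0.475 ± 0.187 CPM in mutant and 1.41 ± 1.42 CPM in wild-type libraries, a log2 fold change of −1.52 (SE 0.80, edgeR adjusted p = 0.383) that became −0.25 (adjusted p = 0.876) without it. Hsp90aa1 averaged 0.727 ± 0.0512 CPM in mutant and 1.14 ± 0.750 CPM in wild-type libraries, a log2 fold change of −0.64 (SE 0.44, edgeR adjusted p = 0.502) that became 0.06 (adjusted p = 0.969).

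Hsp90ab1, the most counted, had the smallest log2 fold change of the 5 with all libraries and TMM scaling, though not without wild-type library 1 or with total counts. It had 12.5, 9.5 and 8.39 CPM after TMM scaling in the mutant libraries, against 16.4, 7.93 and 8.5 in the wild-type libraries. The mutants lay between the wild-type extremes, and the log2 fold change was −0.12 (SE 0.27, edgeR adjusted p = 0.883), or 0.30 (SE 0.21, adjusted p = 0.494) without wild-type library 1. Without that library 0 of the 5 were called, where 9.19% of 3025 genes were called and 2.55% were lower. With batch as a term 0 were called, where 9% of genes were called and 2.13% were lower, and Dnajb1 came nearest (log2 −1.20, edgeR adjusted p = 0.0805).

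**Figure D4:**
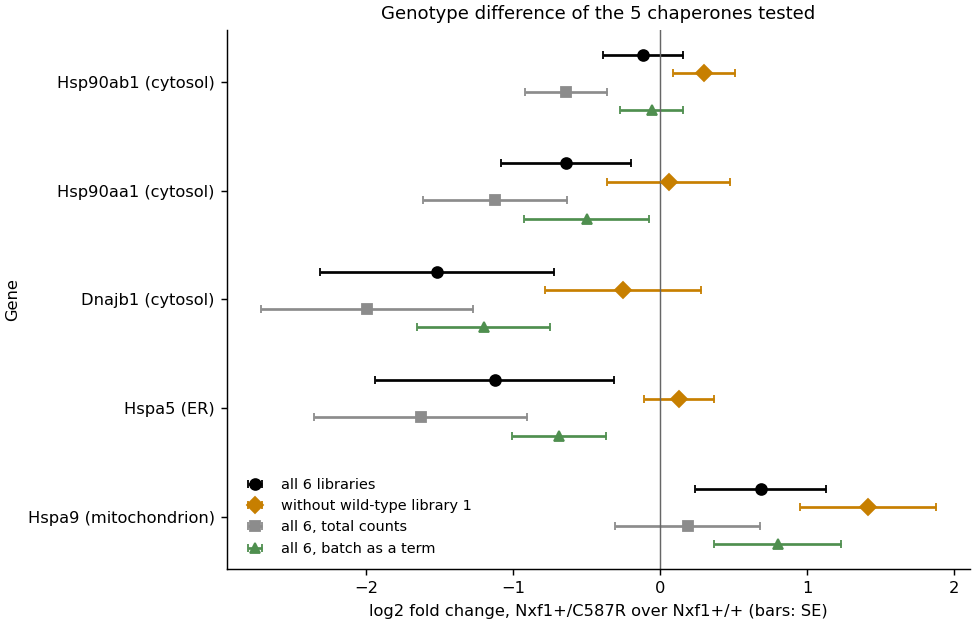
Log2 fold change of mutant over wild type (x axis, bars are standard errors) of the 5 chaperones tested, with all 6 libraries, without wild-type library 1, with total counts in place of TMM scaling, and with batch as a term. Hspa5, Dnajb1 and Hsp90aa1 lie below 0 with all libraries and within 1 standard error of 0 without wild-type library 1.

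Hspa9 was the only tested chaperone with a positive log2 fold change over all libraries. Its TMM-scaled level was 1.37, 0.841 and 0.968 CPM in the mutant libraries, against 1.16, 0.305 and 0.464 in the wild-type libraries. On this scale the mutant was the higher one in 3 of 3 batches, but wild-type library 1 lay above mutant libraries 2 and 3. By RPKM, which uses library totals, mutant library 1 lay below its batch partner (0.325 against 0.467). The log2 fold change was 0.68 (SE 0.45, edgeR adjusted p = 0.475) and did not pass without wild-type library 1 either (1.41, SE 0.46, edgeR adjusted p = 0.0724, DESeq2 0.287). With total counts it was 0.19 (edgeR adjusted p = 0.780). The hepatocyte markers were at 2963 to 6398 counts in the mutant libraries and 89 to 225 in the wild-type libraries, and their part in the Hspa9 value was not tested.

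The other 4 chaperones were too low in counts for the filtered test. With no filter Hspa8 and Dnajb1 were called lower in the mutants (log2 −1.79 and −1.44, edgeR adjusted p = 0.0294 and 0.0317), where 2.83% of 16396 genes were called and 0.5% were lower. Both calls were lost without wild-type library 1 (log2 −0.71 and −0.22, edgeR adjusted p = 0.743 and 0.906), where 2.97% of genes were called and 0.435% were lower. They were also lost with batch as a term (log2 −1.59 and −1.13, edgeR adjusted p = 0.161 and 0.344), where 2.49% were called and 0.451% were lower. Hspa8 was lower in the mutant in 3 of 3 batches (0.366, 0.168 and 0.258 CPM after TMM scaling in the mutant libraries, against 2.05, 0.305 and 0.567 in the wild-type libraries). It also entered the test in 6 filtered settings, and 1 of them called it lower, that without wild-type library 2 (log2 −2.26, edgeR adjusted p = 0.0309, where 6.66% of 3273 genes were called and 0.794% were lower). In that setting it passed the filter only through wild-type libraries 1 and 3, where it is high, so the call is no independent evidence. In the other 5 it had log2 values of −2.07 to −1.61 (edgeR adjusted p 0.108 to 0.443). Hspa8 reached 0.657 CPM in 0 mutant and 2 wild-type libraries. These settings thus also admitted it through wild-type libraries where it is high, and their values are no independent evidence either. Dnaja1, Hspd1 and Hspe1 had log2 values of −0.24, 0.39 and −1.28 with no filter (edgeR adjusted p 0.762 to 0.895), and that of Hspe1, at 0 in 3 libraries, depends on the prior count.

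Ratios between chaperones of the same library do not depend on scaling, and 7 were compared. Hspa9 to Hspa8 was 3.75, 5.0 and 3.75 in the mutant libraries, against 0.564, 1.0 and 0.818 in the wild-type libraries. The groups did not overlap and wild-type library 1 lay with its group, although few counts stand behind each ratio. The exact permutation p was 0.1, the smallest possible, and 0.35 after adjustment over the 7. The mitochondrial genes made up 9.63%, 8.37% and 9.92% of the counts of all 9 in the mutant libraries, against 4.82%, 3.95% and 5.76% in the wild-type libraries. These shares did not overlap either (exact permutation p = 0.1, adjusted 0.35). The hepatocyte markers also differed between the groups, and their part in both measures was not tested.

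The ER share, which is Hspa5 alone, was 18.8%, 22.7% and 24.8% in the mutant libraries, against 40.5%, 23.7% and 24.4% in the wild-type libraries. It overlapped and was highest in wild-type library 1 (exact permutation p = 0.3, adjusted 0.42), and the difference of −7.43 percentage points was −1.96 without that library. Hspa5 to Hspa8 averaged 16.1 ± 6.44 in mutant and 8.72 ± 2.13 in wild-type libraries, and Hsp90aa1 to Hsp90ab1 0.0738 ± 0.0172 and 0.098 ± 0.0244 (exact permutation p = 0.2 and adjusted 0.35 for both). The difference of the first, 7.36, was 3.9 without mutant library 2, and that of the second, −0.0242, was −0.0125 without wild-type library 1 and −0.0369 without wild-type library 3. The cytosolic share and the ratio of Dnajb1 to Dnaja1 had exact permutation p of 0.9 and 1.0. A ratio of Hspd1 to Hspe1 could not be formed, since Hspe1 had 0 counts in 3 libraries.

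**Figure D5:**
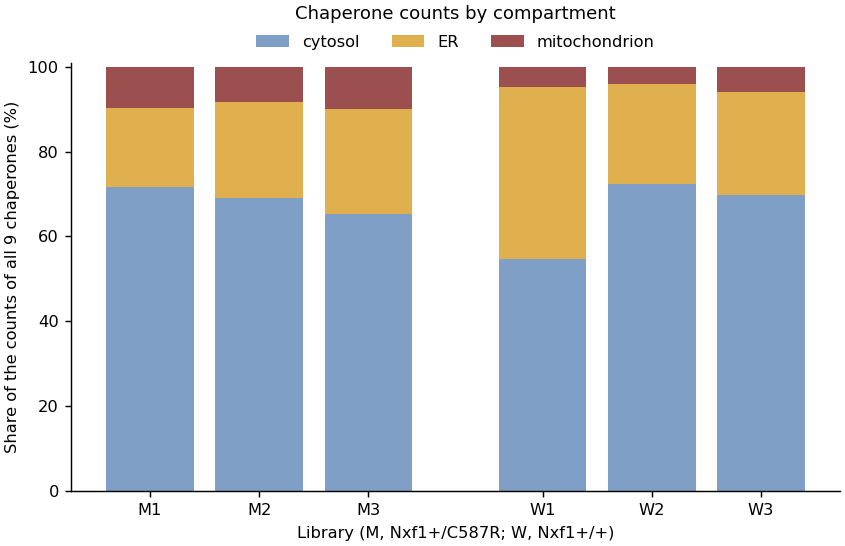
Share of the summed counts of all 9 chaperones (y axis, %) that fell to cytosolic, ER and mitochondrial genes in each Nxf1+/C587R library and each Nxf1+/+ library. The mitochondrial share was 8.37% to 9.92% in the mutant and 3.95% to 5.76% in the wild-type libraries, and the ER share reached 40.5% in wild-type library 1.

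Of the 146 partner genes on 8 lists, 43 were tested. By edgeR with TMM scaling 0 were called in either direction, against 7.05% of the 2823 genes tested. At an unadjusted edgeR p under 0.05 there were 5 of the 43, against 523 of all 2823 genes tested. DESeq2 and limma-voom called 0, against 188 and 185 of the 2823 genes. The median log2 fold change of the 43 was −0.22, against −0.06 over all genes tested. The 11 tested genes of the ER list had a median of −0.42, and 12 had a median of 0.30 without wild-type library 1. The smallest p in that list was that of Herpud1, an ER stress gene (log2 −1.01, SE 0.56, edgeR adjusted p = 0.395), which had 0.00 (adjusted p = 0.999) without that library. Calr (calreticulin), the most counted of the list, had −0.27 (edgeR adjusted p = 0.775). Of the 9 co-chaperones tested the smallest p was that of Ahsa1, an activator of the HSP90 ATPase. It averaged 1.85 ± 0.0804 CPM in mutant and 3.03 ± 0.322 CPM in wild-type libraries (log2 −0.71, SE 0.26, edgeR adjusted p = 0.125). Bag1 had 0.40 (SE 0.16, adjusted p = 0.180).

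In the remaining lists no gene came as close to the threshold as Ahsa1. Of 8 J-domain genes, Dnajb2 had a log2 fold change of −0.38 and Dnaja4 of 0.00 (edgeR adjusted p = 0.395 and 0.993). Of 4 chaperonin and prefoldin genes, Cct7 had −0.26 and Pfdn5 0.49 (edgeR adjusted p = 0.545 and 0.470). Of 3 mitochondrial genes, Hscb had 0.01 and Spg7, a protease subunit, 0.46 (edgeR adjusted p = 0.991 and 0.548). Hspa4 and the small heat shock gene Hspb6, alone tested in their lists, had −0.13 and 0.02 (edgeR adjusted p = 0.918 and 0.984). Ubb, of 6 genes in the list of heat shock factors, HRI and stress, averaged 154 ± 17.2 CPM in mutant and 202 ± 24.4 CPM in wild-type libraries (log2 −0.39, SE 0.16, edgeR adjusted p = 0.185).

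Scaling moved these values together. The TMM factors were 0.72, 0.78 and 1.06 in the mutant libraries, against 1.23, 1.11 and 1.23 in the wild-type libraries. Without TMM the median of all genes tested shifted to −0.53, 12.8% of genes were called and 8.68% were lower. In that setting 6 partner genes fell, Ubb, Dnajb2, Ahsa1, Atf4, Cct7 and Ppp1r15a (log2 −1.32 to −0.76, edgeR adjusted p 0.000131 to 0.0454). Relative to the shifted median their values were −0.79 to −0.23. Of the 5 chaperones 0 were called there, with Dnajb1 nearest (log2 −2.00, edgeR adjusted p = 0.0847).

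The genes whose pattern over the 6 libraries was most like that of Hsp90ab1 were Ndfip1, Dok3, Canx, Cdipt and Hexa, among 2734 searched. Their root mean square difference from Hsp90ab1, on log2 CPM centred on each gene's mean, was 0.0814 to 0.134, against a median of 0.501 over the genes searched. Ndfip1 had 16, 12 and 16 counts in the mutant libraries and 41, 16 and 20 in the wild-type libraries, and Canx (calnexin, an ER lectin chaperone) had 18, 15 and 15 against 45, 14 and 23. Each of the 5 genes had its highest count in wild-type library 1, like Hsp90ab1. They were chosen for their likeness to it, so the shared peak follows from the choice. By CPM, 53.7% of the 4096 genes with at least 10 counts in that library were highest there.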

How the data were processed

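Each deposited file holds the raw count and the length in bases of every gene for 1 library, per the file headers. The submitters' processing notes name CASAVA 1.8.2, Subread, featureCounts and the build mm10, and the strand setting and annotation are not given in the sources used here. Symbols and positions came from RefSeq (GRCm38.p6), and 25293 of 27179 genes had a symbol.

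Genotypes were compared over all genes with edgeR 4.0.16 in R 4.3.3 (robust quasi-likelihood F test, TMM, filterByExpr, genotype as the only term, Benjamini-Hochberg adjustment), after a run on simulated data. An SE is the size of the log2 fold change over the root of F. DESeq2 1.42.0 and limma 3.58.1 were alternatives, and scipy 1.17.1 gave exact tests and Wilson intervals. The batch labels pair mutant and wild-type mice, and deviations of paired libraries from their group means correlated at −0.116, −0.0855 and −0.0439. Libraries held 14636739 to 15790336 counts, and a count of 0 allowed 3 counts, or 0.190 to 0.205 CPM. Reads carried no molecular identifiers, so that these floors and the intervals hold for counting error alone.

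The 9 members and all lists were chosen with earlier results of these data known. Genes were named by rule: all members, the smallest p and most counts of each partner list, the 2 most counted genes of each marker list, and the 5 genes most like the most counted member. All 146 partner and 142 of 145 marker entries matched a gene.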

Additional observations from a re-analysis of the deposited data

How the results depend on the processing

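Most chaperones had under 20 counts in most libraries, so changes of such genes were detectable only if large. With all libraries 169 genes were called higher and 30 lower, and the cause of the changes below was not tested. The number called higher was 382 with no filter, 384 with no filter and without wild-type library 1, and 334 with no filter and the replicate block. The number called lower was 19 with DESeq2 size factors in edgeR, 245 with total counts, 82 with no filter, 15 with a mean count of at least 10, 11 with DESeq2, 19 without batch 2 and 3 without batch 3, and 8 to 77 when single libraries were left out, the highest without wild-type library 1. Without wild-type library 1 it was also 242 with total counts and 66 with no filter. With the replicate block (batch as a term) it was 60, and 74 with no filter, and with the filter the block changed no call of a chaperone or partner gene. Of the 9 chaperones 2 (Hspa8 and Dnajb1) were called with no filter, and 0 to 1 (Hspa8, without wild-type library 2) when single libraries were left out. Partner genes called higher numbered 0 to 1 (Bag1, without mutant library 3) when single libraries were left out. Partner genes called lower numbered 6 with total counts, 4 with total counts when wild-type library 1 was left out, 1 (Creld2) with no filter and 2 (Ero1b and Hspa1a) with the replicate block and no filter.

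With TMM or DESeq2 scaling, signs turned mainly without wild-type library 1. When single libraries were left out, the log2 fold change was −0.94 to 0.058 for Hsp90aa1, −0.28 to 0.30 for Hsp90ab1, −1.48 to 0.13 for Hspa5, all highest without wild-type library 1, and −0.55 to 0.30 for Dnaja1. Without wild-type library 1, Hsp90aa1, Hsp90ab1 and Hspa5 had 0.11, 0.36 and 0.19 in DESeq2 and 0.086, 0.32 and 0.16 in edgeR with no filter, where Dnaja1 had 0.23 and Hspe1 0.75. Without batch 1, which holds that library, Hsp90aa1, Hsp90ab1, Hspa5 and Dnajb1 had 0.10, 0.17, 0.19 and 0.034. Without mutant library 3, Hsp90ab1 had 0.09, and Dnaja1 had 0.047 without batch 3. The difference in the ratio of Dnajb1 to Dnaja1 (−0.0388) was −1.49 to 0.738 over single libraries left out, with 0.635 when mutant library 1 and 0.598 when wild-type library 1 was absent. That in the cytosolic share (2.97 percentage points) was −2.49 to 6.34, the lowest without wild-type library 1.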
